A study of Homo sapiens with 16 samples.

Results

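The matrix proteases and the plasminogen system were followed through 9 genes: the matrix metalloproteinases MMP1, MMP9, MMP10 and MMP14, the plasminogen activators PLAU and PLAT, the urokinase receptor PLAUR, and the metalloproteinase inhibitors TIMP1 and TIMP2. A gene was taken in when its symbol stood in the symbol column of the signal table, and all 9 were found, each with 1 probe, among 20589 probes with 18190 gene symbols. The arrays came from MCF10HER2 cells, which are MCF10A nontransformed breast epithelial cells transduced to stably over express HER2, grown without serum or insulin in medium with EGF and hydrocortisone. Parallel cultures received the HER2 kinase inhibitor CP724,714 at 1 µM, and RNA was collected every 3 h, so that 1 untreated array at 0 h was followed by 15 treated arrays from 3 to 45 h. The series asks which genes the HER2 kinase regulates in this line. Each time point has 1 array, no vehicle culture later than 0 h was analysed here, and the medium was changed when the inhibitor was added, so the inhibitor, the fresh medium and time in culture cannot be told apart. Whether the line is 1 clone is not given in the sources used here, and whether fewer cells or less RNA per cell lay behind a lower signal cannot be told apart.

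Plasminogen activators are serine proteases that turn the circulating zymogen plasminogen into plasmin, a broad protease that cleaves fibrin and matrix proteins and can activate pro-forms of matrix metalloproteinases. The urokinase-type activator, the product of PLAU, does this on the cell surface while bound to its receptor, the product of PLAUR, and is held in check by inhibitors of the serpin family. Matrix metalloproteinases cut collagens, laminins and other matrix proteins and are blocked by the tissue inhibitors of metalloproteinases (TIMPs). In breast epithelium these systems are known for their part in gland remodelling and in invasion.

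The 9 genes fell into those well above background and those at it. PLAU, PLAUR, TIMP1 and TIMP2 were detected on all 16 arrays, at a deposited detection p under 0.05. PLAT was detected on 7 arrays, and MMP1, MMP9, MMP10 and MMP14 on 0. Values below are signals that were background-corrected and quantile-normalized and are on the log2 scale unless the deposited intensity is named, and a probe was tested when it was detected on 3 or more arrays. This left 5 of the 9 genes among 12321 tested probes (11565 symbols). PLAU fell over the course, PLAUR rose and then fell back in part, TIMP1 rose and stayed high, PLAT rose above background in the middle of the course only, and TIMP2 met no test.

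Of the 9 genes, 4 (PLAU, PLAUR, PLAT and TIMP1) depended on time in a spline fit (limma adjusted p under 0.05), against 41.9% of all tested probes. Only the 5 tested genes could enter this count and the later ones, so each count is to be read out of 5 beside its share. PLAT was tested only because it was detected on the middle arrays, so its place in this count is not independent of its course. The median fitted range of the 5 tested genes was 1.01 on the log2 scale, against 0.26 over all tested probes. Of the 5, 4 were detected on all 16 arrays, as were 8672 of the tested probes. Dim probes have compressed ranges, as described with PLAT. When these 8672 probes were fitted alone, 4463 depended on time. The 9 genes were chosen with earlier results of these data known. A straight line over 45 h was called lower for 1 gene, PLAU, where 11.5% of tested probes were lower, and higher for 1 gene, TIMP1, where 12.9% were higher.

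The arrays themselves were uneven. Between 10363 and 11436 probes were detected on an array. The background signal was 135.93 to 148.88 on the 8 arrays from 0 to 21 h and 164.48 to 173.87 on the 8 arrays from 24 to 45 h, so the course falls into 2 array batches that meet at 24 h, and the labels name no chip. The comparisons of 12-21 h with 0-9 h and of 36-45 h with 24-33 h were therefore made within a batch. The 9 h and 18 h arrays were dimmer, with an upper quartile intensity of 397.35 and 418.39 against 553.21 to 803.66 on the others. When arrays were scaled to their medians and not quantile-normalized, the linear calls over all tested probes went from 1584 higher and 1420 lower to 2409 higher and 585 lower, and the calls of 12-21 h against 0-9 h went from 2162 higher and 2216 lower to 3610 higher and 613 lower. The detection p did not follow the signal strictly: on each array 99 to 190 probes with an intensity over 300 had a detection p of 0.05 or more, and 88 probes with a mean intensity over 300 were left untested for this, among them ATF3 (379 to 3120) and LAMB3 (3011 to 7416) of the lists below. None of the 9 genes was over 300 on an array where it was not detected. The general epithelial markers EPCAM, KRT8, KRT18 and KRT19 were detected on all 16 arrays and CDH1 on 15.

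**Figure D1:**
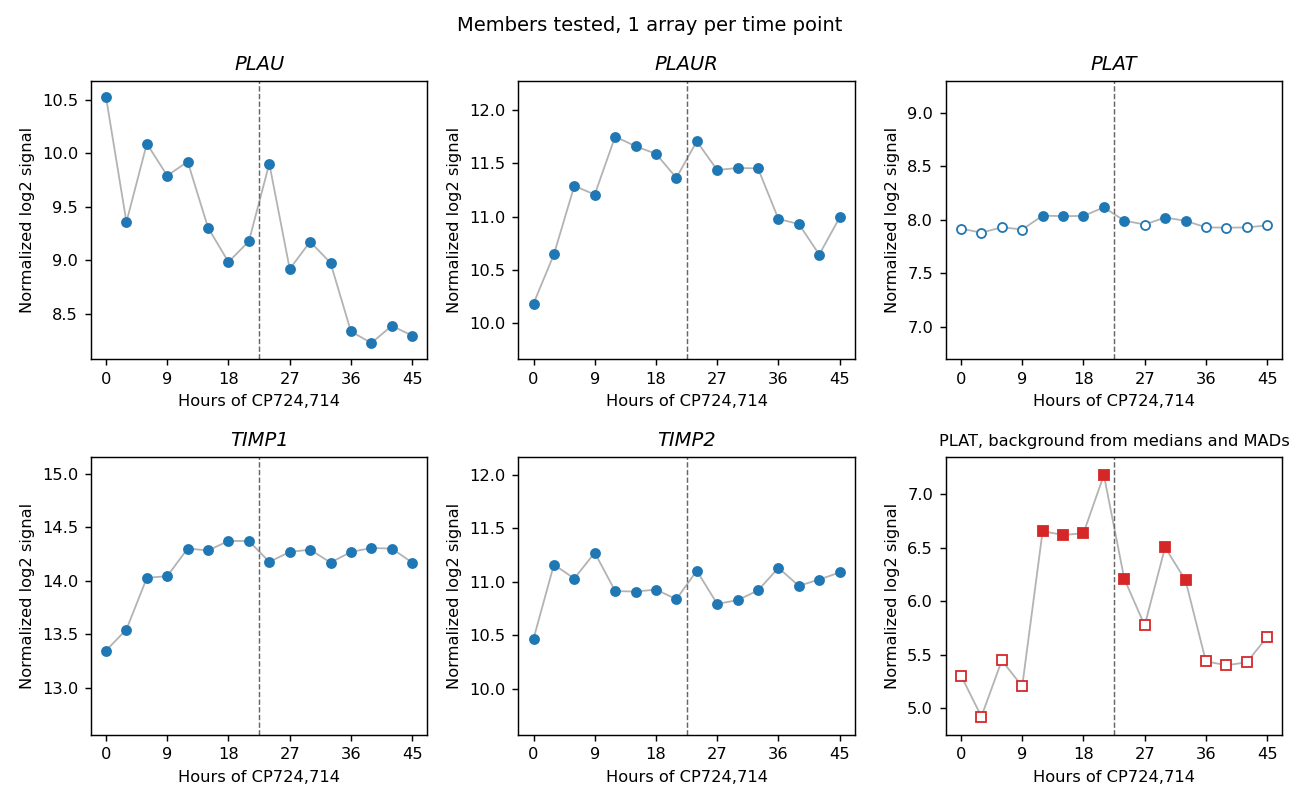
Normalized log2 signal (y axis, spans of at least 2.6 log2 units) of the 5 tested genes against hours of CP724,714 (x axis), 1 point per array, filled where the probe was detected; the dashed line separates the array batches. PLAU falls from 10.52 to 8.29, PLAUR peaks at 11.75 at 12 h, TIMP1 levels off above 14, and the last panel repeats PLAT with another background estimate, where its middle arrays stand apart.

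PLAU (probe ILMN_24167), the urokinase-type plasminogen activator, had its highest signal in the untreated culture. The signals from 0 to 9 h were 10.52, 9.36, 10.09 and 9.79, followed by 9.92, 9.30, 8.98 and 9.18 from 12 to 21 h. In the later batch they were 9.90, 8.92, 9.17 and 8.97 from 24 to 33 h and 8.33, 8.23, 8.39 and 8.29 from 36 to 45 h. All 15 treated arrays lay below the untreated one, the 24 h array stood above its neighbours on both sides, and the last 4 arrays lay below all earlier ones. Relative to the untreated culture the signal was 2.25-fold lower after 3 h and 1.35-fold lower after 6 h. It was 4.92-fold lower after 39 h and 4.69-fold lower after 45 h.

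The straight line gave PLAU a change of -1.91 over 45 h (SE 0.27, limma adjusted p = 5.84e-05), and its fitted range in the spline fit was 2.05 (limma adjusted p = 0.00067). Fitted to each batch alone and scaled to 45 h, the line gave -2.42 for 0 to 21 h (limma adjusted p = 0.057) and -3.11 for 24 to 45 h (limma adjusted p = 0.00039). Its mean was 9.94 ± 0.49 over 0-9 h, 9.35 ± 0.41 over 12-21 h, 9.24 ± 0.45 over 24-33 h and 8.31 ± 0.07 over 36-45 h (SD, n = 4 time points each). The earlier pair of windows overlapped and did not differ past the threshold (-0.59, SE 0.24, limma adjusted p = 0.063). The later pair did not overlap, and the difference of -0.93 (SE 0.24, limma adjusted p = 0.017) was called. Of the 9 genes, 2 were called lower in this later comparison, PLAU and PLAUR, against 5.84% of tested probes, and 0 were called higher, against 6.40%. The later call of PLAU rested on the 24 h array: without it the difference was -0.70 (limma adjusted p = 0.070). With the background taken from the medians and MADs of the negative controls, an estimate chosen after seeing the data that is described with PLAT, the later difference was -1.51 (limma adjusted p = 0.00062). With that background the 39 h and 45 h arrays differed from the 0 h array by -2.98 and -2.74, against -2.30 and -2.23 with the first.

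PLAUR (ILMN_24538), the receptor that holds urokinase at the cell surface, took a different course. Its signals were 10.19, 10.65, 11.29 and 11.20 from 0 to 9 h, and 11.75, 11.66, 11.59 and 11.36 from 12 to 21 h. From 24 to 33 h they were 11.70, 11.44, 11.45 and 11.45, and from 36 to 45 h 10.98, 10.93, 10.64 and 10.99. Each treated array lay above the untreated one, and the 12-33 h arrays lay above all others. The rise over 0 h was 2.95-fold at 12 h, its peak, and 1.75-fold at 45 h.

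The straight line over 45 h did not describe PLAUR (0.06, SE 0.33, limma adjusted p = 0.92), whereas the spline did (fitted range 1.44, limma adjusted p = 0.00015). The 12-21 h arrays lay above the 0-9 h arrays without overlap, at 11.59 ± 0.16 against 10.83 ± 0.52 (SD, n = 4 time points each), a difference of 0.76 (SE 0.18, limma adjusted p = 0.0041). With median scaling this difference was 1.22 (limma adjusted p = 9.76e-05). In the later batch the order turned, with 10.89 ± 0.16 at 36-45 h below 11.51 ± 0.13 at 24-33 h (-0.62, SE 0.18, limma adjusted p = 0.034). This later call was lost when any 1 of the 8 arrays from 24 to 45 h was left out, with differences of -0.66 to -0.55 (limma adjusted p = 0.057 to 0.111). It was also lost with median scaling (-0.60, limma adjusted p = 0.085) and without the detection filter.

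TIMP1 (ILMN_3162), a secreted inhibitor of most matrix metalloproteinases, rose early and then held its level. From 0 to 9 h the signals were 13.35, 13.54, 14.03 and 14.04. The next 4 arrays were at 14.30, 14.28, 14.37 and 14.37, and the 8 arrays from 24 to 45 h were between 14.17 and 14.31. The treated arrays were all above the untreated one, and from 12 h on the values spanned only 14.17 to 14.37. The rise over the untreated array was 1.60-fold by 6 h, 2.03-fold by 18 h and 1.77-fold by the end of the course.

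TIMP1 had a fitted range of 1.01 in the spline fit (limma adjusted p = 3.15e-06). The 12-21 h arrays, at 14.33 ± 0.05, lay above the 0-9 h arrays, at 13.74 ± 0.35 (SD, n = 4 time points each), by 0.59 (SE 0.11, limma adjusted p = 0.0007), and the ranges did not overlap. With median scaling the difference was 0.94 (limma adjusted p = 3.3e-05). Between 24-33 h and 36-45 h the difference was 0.04 (SE 0.11, limma adjusted p = 0.89) and the ranges overlapped. The linear trend of 0.57 over 45 h (SE 0.17, limma adjusted p = 0.022) depended on the first arrays: it was 0.36 without the 0 h array (limma adjusted p = 0.11), 0.45 without the 3 h array (limma adjusted p = 0.072) and 1.13 when the fit held a term for the batch (limma adjusted p = 0.048). For each batch alone, scaled to 45 h, it was 2.20 (limma adjusted p = 0.0094) and 0.05 (limma adjusted p = 0.87).

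TIMP2 (ILMN_1046), an inhibitor that also takes part in the activation of pro-MMP2 by MMP14, met no threshold of the fits. It was lowest at 0 h, at 10.47, and the 15 treated arrays lay between 10.79 and 11.27, the highest at 9 h. Its fitted range was 0.39 (limma adjusted p = 0.36), its linear change 0.11 (SE 0.16, limma adjusted p = 0.68), its difference of 12-21 h from 0-9 h -0.09 (SE 0.14, limma adjusted p = 0.66) and its difference of 36-45 h from 24-33 h 0.14 (SE 0.14, limma adjusted p = 0.58). The low 0 h array bears on the early difference, which was -0.26 without it (limma adjusted p = 0.036) and 0.35 with median scaling (limma adjusted p = 0.097).

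PLAT (ILMN_1289), the tissue-type plasminogen activator, lay at the edge of detection, and its course is given in deposited intensities, which include the background of each array. They were 172.22, 147.16, 174.65 and 153.87 from 0 to 9 h and 227.68, 227.88, 197.57 and 274.37 from 12 to 21 h. From 24 to 33 h they were 246.46, 224.73, 287.87 and 262.46, and from 36 to 45 h 206.96, 196.29, 205.78 and 220.78. The background was higher on the arrays from 24 h on. Divided by the background of the array, the intensities were 1.00 to 1.21 from 0 to 9 h and 1.42 to 2.02 from 12 to 21 h. This ratio was 1.29 to 1.69 from 24 to 33 h and 1.19 to 1.28 from 36 to 45 h. The probe was detected on all 4 arrays from 12 to 21 h and at 24, 30 and 33 h, just missed that limit at 27 h, and was not detected on any array from 0 to 9 h or from 36 to 45 h.

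On the normalized scale the means of PLAT were 7.91 ± 0.02 at 0-9 h and 8.05 ± 0.04 at 12-21 h (SD, n = 4 time points each), without overlap, a difference of 0.15 (SE 0.02, limma adjusted p = 1.9e-05). Since PLAT was not detected in the first window this is a bound, at least 1.09-fold higher at 12-21 h. The size depends on the background estimate: the mean and SD of the negative controls, inferred from signals and detection p-values, were raised by bright probes with a high detection p, which compresses dim probes, and with the median and MAD instead the difference was 1.55 (SE 0.18, limma adjusted p = 6.97e-06) and the bound at least 2.42-fold. The later difference was -0.06 (SE 0.02, limma adjusted p = 0.052) with the first background and -0.69 (limma adjusted p = 0.017) with the second; with other choices of background, scaling, filter or weights, or without the dim arrays, it was called in 5 of 6 fits (-0.37 to -0.06) and in 5 of the 16 fits that left out 1 array. Of the 9 genes, 3 (PLAUR, PLAT and TIMP1) were called higher at 12-21 h than at 0-9 h, against 17.5% of tested probes, and 0 were called lower, against 18.0%. PLAT was tested only through its detection from 12 to 33 h, so its call here describes the arrays that let it in, and the count without it is PLAUR and TIMP1.

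The metalloproteinases MMP1 (ILMN_26214), an interstitial collagenase, MMP9 (ILMN_28136), a gelatinase, MMP10 (ILMN_4442), a stromelysin, and MMP14 (ILMN_7511), a membrane-anchored metalloproteinase, gave no signal above background. The deposited intensity was 131.8 to 188.65 for MMP1 (median 161.91), 117.12 to 169.24 for MMP9 (median 140.92), 125.5 to 187.27 for MMP10 (median 160.27) and 140.59 to 204 for MMP14 (median 163.29). On no array did any of the 4 reach the lowest signal called detected on that array, which was 163.9 to 214.94, and the highest ratio to the array's background was 1.21, for MMP14. Each had its highest intensity on an array of the later batch, where the background was also higher. A probe at background bounds the signal of that probe only, and the 4 genes were not tested.

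**Figure D2:**
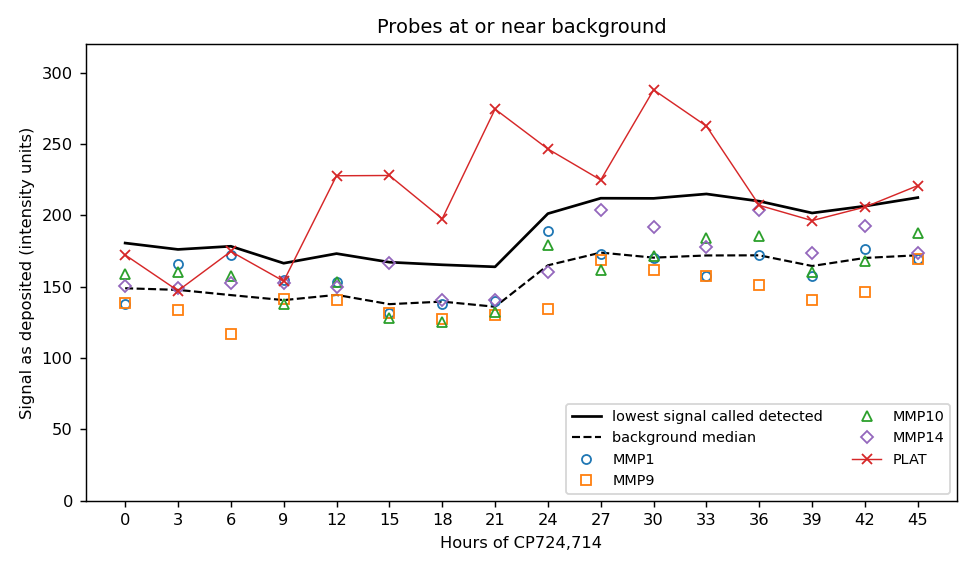
Deposited intensity (y axis, linear) of MMP1, MMP9, MMP10, MMP14 and PLAT on each array against hours of CP724,714 (x axis), with the background median (dashed) and the lowest signal called detected (solid) of each array. The 4 metalloproteinases stay under the solid line at all 16 times, and PLAT lies above it from 12 to 33 h and again at 45 h, where its detection p missed the threshold.

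The threshold that the methods of the study name, a 1.7-fold change at any time point, was applied with the 0 h array as the baseline. Of the 9 genes, 4 met it, against 19.5% of tested probes, and this criterion has no error term. PLAU was 1.7-fold lower at 11 of the 15 treated times, and PLAUR and TIMP1 were each 1.7-fold higher at 12. TIMP2 met it at 1 time only, 1.75-fold higher at 9 h, which is one of the dim arrays, and it did not meet it at 2 consecutive times. All 4 differences share the 0 h array. With the median of the 16 arrays as the baseline only 1 of the 9 genes met the threshold, PLAU.

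**Figure D3:**
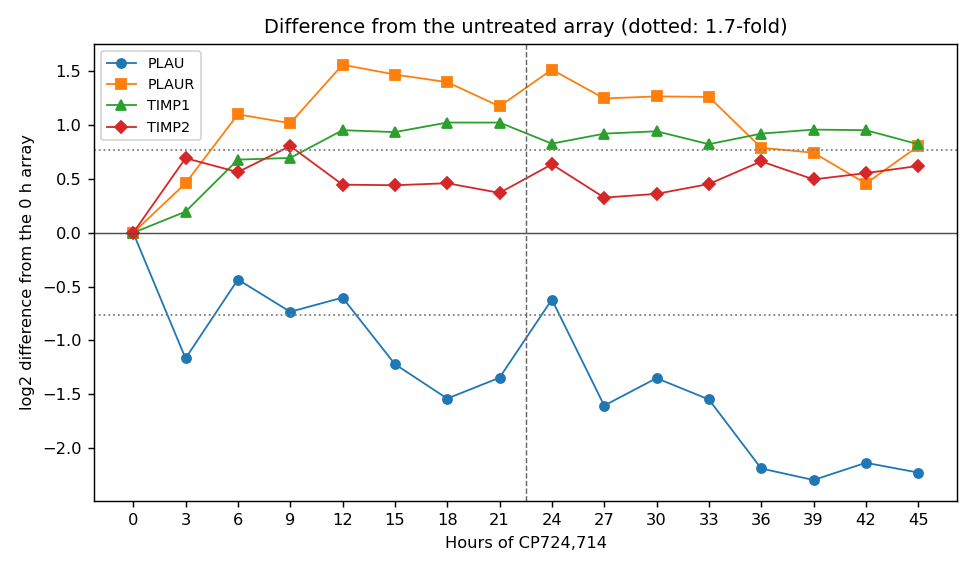
Difference in log2 signal from the untreated 0 h array (y axis) against hours of CP724,714 (x axis) for PLAU, PLAUR, TIMP1 and TIMP2, with 1.7-fold marked by dotted lines and the array batches separated by a dashed line. PLAU reaches -2.30 at 39 h, PLAUR and TIMP1 stay above 0 throughout, and TIMP2 passes the dotted line at 9 h alone.

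The turn of PLAUR and TIMP1 was tested as a difference of slopes, each the log2 change over 21 h, between the arrays from 24 to 45 h and those from 0 to 21 h. The slope of PLAUR was 1.22 (SE 0.28) in the earlier batch and -0.92 (SE 0.28) in the later one, a difference of -2.13 (SE 0.39, limma adjusted p = 0.0018). The slope of TIMP1 went from 1.03 (SE 0.13) to 0.02 (SE 0.13), a difference of -1.01 (SE 0.18, limma adjusted p = 0.0018). PLAT went from 0.22 (SE 0.03) to -0.07 (SE 0.03), a difference of -0.28 (SE 0.05, limma adjusted p = 0.0012), or -3.02 with the median and MAD as background. PLAU sloped down in both batches, by -1.13 (SE 0.32) and -1.45 (SE 0.32), and these did not differ past the threshold (-0.32, SE 0.46, limma adjusted p = 0.64). For TIMP2 the difference was 0.08 (SE 0.31, limma adjusted p = 0.88). Of the 9 genes, 3 had a lower slope in the later batch, against 12.1% of tested probes, and 0 a higher one, against 12.7%. The same limit holds for PLAT in this count, which without it is PLAUR and TIMP1. With median scaling the slope calls over all tested probes went from 1562 higher and 1490 lower to 522 higher and 1343 lower, and PLAUR, PLAT and TIMP1 were still called.

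**Figure D4:**
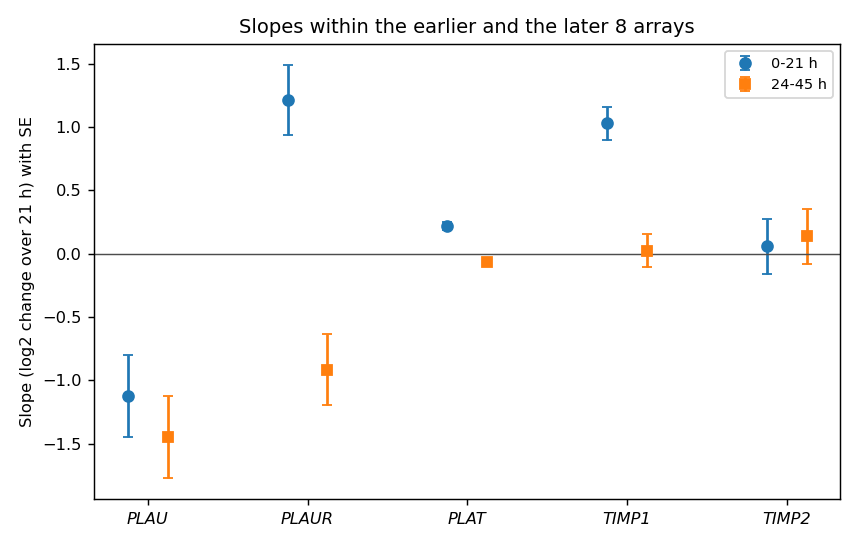
Slopes of the 5 tested genes, as the log2 change over 21 h with SE bars (y axis), in the arrays from 0 to 21 h (circles) and from 24 to 45 h (squares). PLAUR changes sign, TIMP1 goes from 1.03 to 0.02, and PLAU slopes down in both batches.

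As a description with no test, the correlation of PLAUR with TIMP1 was 0.96 over the 8 arrays from 0 to 21 h and -0.48 over the 8 from 24 to 45 h. That of PLAU with PLAUR was -0.52 in the earlier batch and 0.90 in the later one, where both were lower at 36-45 h than at 24-33 h. PLAUR and PLAT had 0.68 and 0.83. The points of each correlation share the array and time.

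Among 11535 genes, those with a course most like that of PLAU by Pearson's r over the 16 arrays were STC1 (0.94), which encodes stanniocalcin 1, ADORA2B (0.93), an adenosine receptor, and DDIT4 (0.92), an inhibitor of mTORC1. For PLAUR they were OCIAD2 (0.95), ACOT9 (0.93) and GPR103 (0.93), a G protein-coupled receptor, and for each of them r was above 0.9 within both batches. For TIMP1 they were COPS5 (0.96), a subunit of the COP9 signalosome, C20orf102 (0.96) and TNNT1 (0.95). The likeness to TIMP1 came from the first batch, since over 24 to 45 h, where TIMP1 held its level, r was -0.33 for COPS5, 0.41 for C20orf102 and 0.18 for TNNT1.

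The starts of the genes that moved are shown because PLAUR and TIMP1 rose together from 0 to 21 h while PLAU fell. RefSeq promoters (GRCh38.p14) were at hand for 5 of the 9 genes (PLAU, PLAUR, TIMP1, MMP10 and MMP14; 6 promoters, as PLAU has 2), and the 250 bases before each start were searched on both strands for TGANTCA (AP-1), AGGAAG (the PEA3 type of ETS motif), GTAAACA (FOXO) and TATAAA. Printed 5′ to 3′ on the strand of the gene, with matches in capitals, are the first promoter of PLAU (chr10:73910360-73910609, plus strand), that of PLAUR (chr19:43670170-43670419, minus strand) and that of TIMP1 (chrX:47582186-47582435, plus strand).
PLAU: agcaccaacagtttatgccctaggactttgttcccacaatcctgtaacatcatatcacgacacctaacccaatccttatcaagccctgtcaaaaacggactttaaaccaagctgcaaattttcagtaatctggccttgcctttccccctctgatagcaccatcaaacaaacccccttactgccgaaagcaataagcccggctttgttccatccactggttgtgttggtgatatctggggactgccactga
PLAUR: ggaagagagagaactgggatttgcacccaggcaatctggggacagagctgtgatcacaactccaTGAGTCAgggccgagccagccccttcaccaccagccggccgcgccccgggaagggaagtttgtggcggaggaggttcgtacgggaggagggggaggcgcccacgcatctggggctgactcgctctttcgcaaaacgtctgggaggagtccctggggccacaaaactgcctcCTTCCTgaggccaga
TIMP1: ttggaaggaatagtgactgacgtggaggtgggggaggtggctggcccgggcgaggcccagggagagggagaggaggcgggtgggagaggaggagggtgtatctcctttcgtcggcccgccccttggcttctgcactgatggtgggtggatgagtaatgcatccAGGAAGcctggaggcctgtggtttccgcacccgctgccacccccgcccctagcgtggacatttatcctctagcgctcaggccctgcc
PLAUR holds the AP-1 letters TGAGTCA at 186 to 180 bases before the start and the ETS letters, read on the other strand, at 15 to 10 bases before it. TIMP1 holds AGGAAG at 87 to 82 bases before the start. The printed promoter of PLAU holds none of the 4 motifs, and its second promoter holds AGGAAG at 221 to 216 bases before the start. MMP10, which was not detected, holds TGAATCA and TATAAA, and MMP14 none. Of all 35116 promoters searched over the same 250 bases, 6.57% held TGANTCA, 28.7% AGGAAG, 2.98% GTAAACA and 10.7% TATAAA, so a match to the ETS letters is common, and a match describes letters only.

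SERPINE2, which encodes protease nexin-1, an inhibitor of urokinase, ended lower, as PLAU did, but by another course. SERPINE2 was at 13.47 at 0 h and first rose to its highest signal, 14.01, at 3 h, where PLAU was already lower. It stood at 11.68 at 45 h, with a linear change of -2.01 (SE 0.29, limma adjusted p = 6.77e-05). The 12-21 h arrays lay below the 0-9 h arrays by -0.65 (SE 0.12, limma adjusted p = 0.00061), a comparison in which PLAU was not called. The later difference was larger, since the 36-45 h arrays differed from the 24-33 h arrays by -1.38 (SE 0.12, limma adjusted p = 2.74e-06).

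Of the 21 other genes of the plasminogen system, 13 were tested and 9 depended on time, against 41.9% of all tested probes. By the linear fit 5 of the 13 fell and 1 rose, where 11.5% and 12.9% of all tested probes did, and from 24-33 h to 36-45 h 4 fell and 0 rose, where 5.84% and 6.40% did. ANXA2, the plasminogen-binding annexin, fell (-0.82 over 45 h), as did PLGRKT, a plasminogen receptor that the table calls C9orf46 (-0.70). S100A10, the partner of ANXA2, gave -0.05 and was not called. SERPINB6 was the gene that rose (0.37). Plasminogen itself (PLG), LRP1, VTN, HRG, CPB2, THBD and KLKB1 were not detected on any array.

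**Figure D5:**
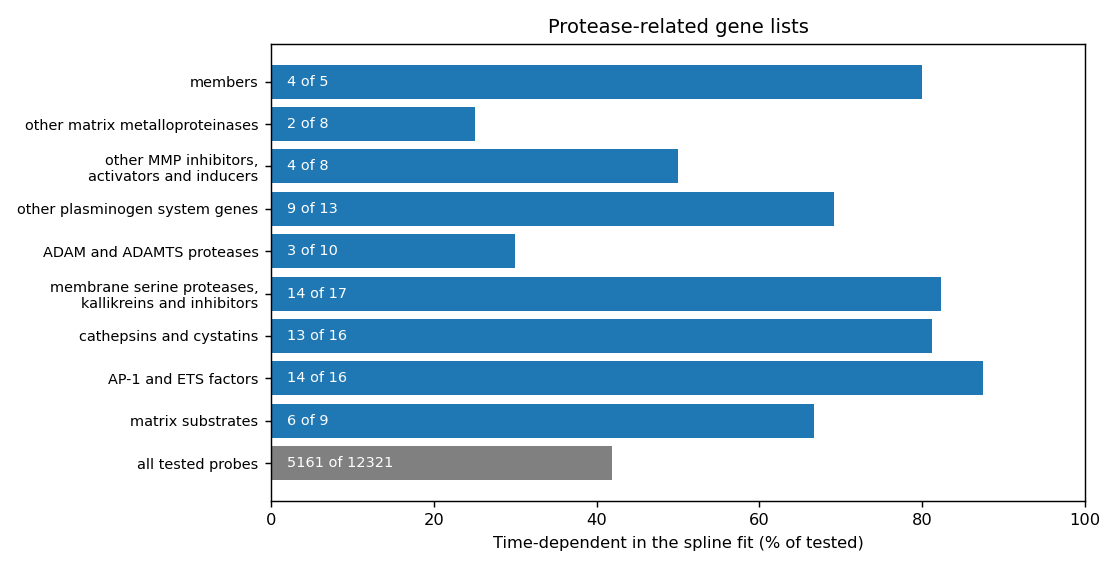
Share of tested genes that depended on time in the spline fit (x axis, percent) for the 9 genes and for 8 further lists (y axis), with counts in the bars; the grey bar is all tested probes. The share is 25% for the other matrix metalloproteinases, 69.2% for the other plasminogen system genes and 41.9% over all tested probes.

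Of the 19 other metalloproteinases 9 were detected on no array, among them the gelatinase MMP2 and the collagenases MMP8 and MMP13, 8 were tested and 2 depended on time. MMP7, matrilysin, an epithelial metalloproteinase, was detected on all 16 arrays, was lower at 12-21 h than at 0-9 h by -1.20 (SE 0.16, limma adjusted p = 2.57e-05) and higher at 36-45 h than at 24-33 h by 0.89 (SE 0.16, limma adjusted p = 0.0014), and stood at 10.61 at 0 h and 10.46 at 45 h. MMP3, stromelysin 1, was detected on 4 arrays and had a linear change of -0.64 over 45 h (SE 0.16, limma adjusted p = 0.0074). Its mean was 8.49 over 0-9 h and 7.89, 7.88 and 7.90 over the later windows, near background. MMP3 was tested only through the arrays where it was high, so its calls are not independent of its course. Of 12 further inhibitors, activators and inducers of metalloproteinases, 8 were tested and 4 depended on time. Over all tested probes the share that depended on time was 41.9%. CD44, a hyaluronan receptor that can dock MMP9, was lowest at 0 h (12.36) and highest at 24 h (13.48) and was 0.68 higher at 12-21 h than at 0-9 h (SE 0.09, limma adjusted p = 2.93e-05). LCN2, which binds MMP9, had a linear change of -0.62 over 45 h (SE 0.12, limma adjusted p = 0.0011). Within the batches it was not called, with -0.05 at 12-21 h against 0-9 h and -0.04 at 36-45 h against 24-33 h. Its window means were 8.84, 8.78, 8.40 and 8.36, so its fall cannot be told apart from the change of batch at 24 h. TIMP3 differed by -0.06 at 12-21 h from 0-9 h (called), and RECK, A2M and TFPI2 were detected on no array.

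Other protease families were read from their own lists. Over all tested probes 41.9% depended on time, and by the linear fit 12.9% were higher and 11.5% lower. At 12-21 h against 0-9 h 17.5% were higher and 18.0% lower. At 36-45 h against 24-33 h 6.40% were higher and 5.84% lower. Of 17 tested membrane serine proteases, kallikreins and their inhibitors (24 on the list), 14 depended on time; 7 were lower at 12-21 h than at 0-9 h, 1 was higher, and 6 were higher at 36-45 h than at 24-33 h, with 2 lower. KLK6 and KLK7, kallikrein proteases of epithelia, gave -1.49 and -0.30 in the early comparison and 1.36 and 1.06 in the late one, all called. Of 16 tested cathepsins and cystatins (17 on the list) 13 depended on time, with 3 higher and 4 lower by the linear fit. CTSF, cathepsin F, rose by 1.76 over 45 h (SE 0.17, limma adjusted p = 1.33e-06), and CTSL2, cathepsin V, gave -0.89 (SE 0.28, limma adjusted p = 0.023). Of 10 tested ADAM and ADAMTS proteases (20 on the list) 3 depended on time, among them ADAM19, with a fitted range of 1.13 and its peak at the dim 9 h array, and ADAMTS9, which was 0.43 higher at 36-45 h than at 24-33 h (SE 0.11, limma adjusted p = 0.013).

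AP-1 and ETS factors are known to act on promoters of many protease genes, and 14 of the 16 tested (18 on the list) depended on time. Over all tested probes 41.9% did. By the linear fit 5 fell and 1 rose, where 11.5% and 12.9% of all tested probes did. FOS, a subunit of AP-1, gave -0.89 over 45 h (SE 0.29, limma adjusted p = 0.030), and ELF3, an epithelial ETS factor, rose by 1.62 (SE 0.43, limma adjusted p = 0.010). Of the matrix substrates of these proteases 9 of 19 were tested, 6 depended on time, and 5 fell and 1 rose by the linear fit, against the same shares. TNC, tenascin C, gave -1.14 (SE 0.11, limma adjusted p = 1.76e-06), and LAMA3, a chain of laminin-332, gave -0.71 (SE 0.25, limma adjusted p = 0.043). Fibronectin (FN1) and the type I collagen genes COL1A1 and COL1A2 were detected on no array.

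The cultures were of the MCF10HER2 epithelial line, and the sources used here name no other cell type in them. Markers of other cell types were read because macrophages, fibroblasts and endothelium also express PLAUR, TIMP1 and PLAT. Of 6 leukocyte and macrophage markers, 5 were tested. At 12-21 h against 0-9 h 2 were higher, as PLAUR and TIMP1 were, against 17.5% of tested probes, and 1 was lower, against 18.0%. The higher ones were CD68, a lysosomal protein, by 1.74 (SE 0.12, limma adjusted p = 6.4e-08) and CD14 by 0.30. CSF1R was lower by -0.37, PTPRC (detected on 7 arrays), LYZ (on 4) and ITGAM (on 1) were near background, and the summed normalized signal of the 6 was 2167 to 2691 at 0-9 h and 3350 to 3895 at 12-21 h. Of 6 fibroblast markers 4 (COL1A1, COL1A2, LUM and PDGFRB) were detected on no array and DCN on all; DCN was 0.12 higher at 12-21 h, and the sum was 1471 to 1483 at 0-9 h and 1482 to 1513 at 12-21 h. Of 5 endothelial markers CDH5 and VWF were detected on no array, TEK on 3 and KDR on 15. PECAM1 was 0.25 higher at 12-21 h, while KDR (0.01) and TEK (-0.03) were not called. The sum went from 1221 to 1259 at 0-9 h to 1269 to 1290 at 12-21 h. Most probes in the fibroblast and endothelial sums lay near background. The part of these markers in the courses of PLAUR, TIMP1 and PLAT was not tested. Of 6 basal epithelial markers 4 were tested and all 4 depended on time, against 41.9% of all tested probes. The linear changes were 2.90 for KRT17 (SE 0.32), 1.51 for ITGB4 (SE 0.30), -0.47 for KRT5 (SE 0.12) and -0.02 for TP63, the last not called. KRT17 was called in neither comparison within a batch, with 0.63 early (limma adjusted p = 0.135) and 0.97 late (limma adjusted p = 0.053). Its line therefore also spans the change of batch at 24 h.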

How the data were processed

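RNA from 16 parallel cultures, 1 per time point, was measured on Illumina Ref-8 beadchips. The authors deposited the raw intensity of every probe, not yet normalized between arrays, and a detection p-value, which in Illumina's scheme sets a probe against negative controls, although some bright probes here have high values; no other columns of samples were left out. The image processing behind the intensities is not given in the sources used here. The members and lists were chosen with earlier results of these data known.

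Background correction, quantile normalization and log2 used limma's neqc (limma 3.58.1 under R 4.3.3; offset 16), which infers the mean and SD of the negative controls from the detection p-values; the offset shrinks the folds of dim probes. Testing required detection (p under 0.05) on at least 3 of 16 arrays. On all 12321 tested probes limma (lmFit, eBayes with trend) fitted a natural spline of time with 4 df, a straight line, window means of 4 arrays each, and a slope per array batch. P-values were adjusted by Benjamini-Hochberg over all tested probes, with a threshold of 0.05. The fits were tested on simulated data. With 1 array per time point, p-values measure the scatter of neighbouring arrays and not of repeated cultures, and the number of arrays limits the precision.

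The genes named were the 9 members and, from each other list, the 2 genes of largest fitted range among those past the spline threshold. The rule also took the 3 genes of highest Pearson's r for some members. These were the members past that threshold whose highest and lowest log2 values differed by 1 or more. MMP2, MMP8, MMP13, TIMP3, RECK, A2M, TFPI2, ANXA2, PLGRKT, S100A10, SERPINB6, FN1 and other list members outside this rule were chosen after their values were seen, to account for undetected genes and for parts of the pathway. Genes of several probes were read from the probe of highest mean signal. One gene that this rule names is not reported here. The alternatives covered background, scaling, the detection filter, array weights, the spline, the batch, the baseline and each array left out; background moments from the median and MAD were chosen after seeing the data.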

Additional observations from a re-analysis of the deposited data

Results flagged for a closer look

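The slopes before and after 24 h differed past the threshold for 3 of the 9 genes (limma, slope of 24-45 h minus slope of 0-21 h, as the log2 change over 21 h). All 3 were lower, where 12.1% of tested probes were lower and 12.7% higher. PLAT was tested only through its detection in the middle of the course, so its place in this count is not independent of its course. The difference was -2.13 for PLAUR (adjusted p = 0.0018), -0.28 for PLAT (adjusted p = 0.0012) and -1.01 for TIMP1 (adjusted p = 0.0018). The boundary between the periods is also that of the array batches, so that time and batch cannot be told apart at 24 h.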

How the results depend on the processing

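No paired analysis was possible because no time was repeated. Of 625 values of the 5 tested genes under other settings, 591 kept their direction and their side of the threshold or were called in neither fit, 16 lost a call, 17 gained one and 1 reversed: the linear change of PLAUR, which the straight line over 45 h did not call, was -1.96 (scaled to 45 h, limma adjusted p = 0.00095) over the 24 to 45 h arrays alone. The number of genes with a linear trend (2) was 1 with array weights, 1 to 2 when an array was left out, 3 over 0 to 21 h alone (PLAUR, PLAT and TIMP1) and 2 over 24 to 45 h alone (PLAU and PLAUR), and TIMP1 lost the call with array weights (0.30, limma adjusted p = 0.148). The number shifted from 24-33 h to 36-45 h (2) was 1 without the detection filter and 0 to 3 when 1 array was omitted; it was 0 without the 24 h array. The number changed 1.7-fold (4) was 1 against the median of the 16 arrays and 3 to 4 when 1 array was omitted. The number that depended on time (4) was 4 when 1 array was omitted, the number shifted from 0-9 h to 12-21 h (3) was 3 to 4, and the number with different slopes (3) was 3. PLAU gained the early call without the 3 h (-0.80), the 12 h (-0.78) or the 24 h array (-0.59). Removing both dim arrays ended no call of the fits. Over all settings limma's adjusted p ran from 1.27e-05 to 0.057 for the linear trend of PLAU, 0.0094 to 0.87 for that of TIMP1 and 0.00095 to 0.97 for that of PLAUR. For 12-21 h against 0-9 h it ran from 0.016 to 0.66 for PLAU, 9.76e-05 to 0.015 for PLAUR, 6.97e-06 to 7.88e-05 for PLAT, 3.03e-05 to 0.0029 for TIMP1 and 0.036 to 1.00 for TIMP2, and for 36-45 h against 24-33 h from 0.00028 to 0.070 for PLAU, 8.51e-05 to 0.11 for PLAUR and 0.0049 to 0.16 for PLAT.

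Over all tested probes, the linear count of 3004 was 760 with the array batch as a block and 1391 over 0 to 21 h alone. The count of 36-45 h against 24-33 h, 1507, was 3797 with array weights and 744 with median scaling, and the slope count of 3052 was 1865 with median scaling. The 1.7-fold count of 2398 was 6447 with the median and MAD background, 3789 with normexp from the signals alone, 3629 with median scaling, 1352 at 2-fold and 1495 against the median of the 16 arrays. The mean over several probes of a member gave no value, since each has 1 probe. Arrays without repeats and signals near background limit PLAT and the undetected metalloproteinases.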
